A study of Mus musculus with 12 samples.

Results

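The genes described here are 31 markers of resting microglia: receptors, transcription factors, surface proteins and enzymes by which these cells are recognised in healthy brain. They were taken as a list of symbols, and all 31 were found among the 43629 gene IDs of the count table. Forebrain poly(A) RNA came from 12 libraries, with 3 for each sex of mice injected as newborns into the cerebral ventricles with PBS or with a recombinant adeno-associated virus (rAAV) coding for a collagen domain, and killed at 3 months. The promoter that drives the transgene and the mouse strain are not given in the sources used here. The controls received PBS and not an empty vector, so an effect of the virus itself and of the collagen domain cannot be told apart. The labels number the samples of each group but do not say that each is a separate mouse, so p-values measure the spread between these libraries only.

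Microglia are the resident macrophages of the brain. They depend on signalling through the receptor Csf1r, and TGF-beta together with the transcription factors PU.1 (Spi1) and Sall1 keeps up the gene programme that sets them apart from other macrophages. In injury or disease many of these genes are lowered while genes of activation are raised. RNA of whole forebrain mixes all cell types, so fewer microglia and less RNA per microglial cell cannot be told apart.

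The libraries held 39272127 to 52323985 reads. Several of them went against their labels. C1qtnf3, the mouse gene named in the study's title, had under 1000 reads in 2 libraries labelled collagen domain (females 1 and 3) and over 1000 in 2 labelled PBS (female 2 and male 1). Xist and Ddx3y, the X-inactivation RNA and a Y-linked gene, were opposite to the labelled sex in 4 libraries, namely 2 labelled PBS (female 2 and male 1) and 2 labelled collagen domain (female 1 and male 3). In all, 5 libraries went against 1 label or both. Genes of cerebellum and hindbrain stood high in 5 libraries (PBS females 2 and 3, PBS male 3, and collagen domain female 2 and male 2), although the tissue is described as forebrain. Groups below are as labelled, and each main result is also given without these libraries.

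Most of the 31 genes were well covered, though whole forebrain does not show which cells their reads came from. In CPM, read counts scaled to the size of each library, 30 of the 31 genes stood above 1 in every library, and the exception was Ltc4s, the leukotriene C4 synthase, at 0.353 to 0.642 CPM (16 to 34 reads). Levels of different genes are compared only after dividing CPM by the exon length in kb. On that scale Ctss, the lysosomal protease cathepsin S, had the highest mean at 55.1 ± 13.1 (SD, n = 12). Lgmn, the lysosomal protease legumain, followed at 43.0 ± 3.21 CPM per kb. P2ry12, the ADP receptor that guides microglial processes to damaged cells, came next at 16.6 ± 1.60, and no library's value reached the lowest for Lgmn. Itgb5, an integrin chain found in other cell types too, stood at 11.9 ± 1.91, and Csf1r, the receptor for colony-stimulating factor 1 and interleukin-34, at 10.6 ± 0.802 CPM per kb.

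The 5 lowest genes were of mixed kinds. Ptprc, the leukocyte phosphatase CD45, was lowest at 0.225 ± 0.0620 CPM per kb of all its annotated exons. Cd33, an inhibitory sialic-acid-binding receptor, stood at 0.464 ± 0.0954 and Ltc4s at 0.471 ± 0.0887. Irf8, an interferon regulatory factor needed for the microglial lineage, had 0.535 ± 0.0624, and P2ry6, a UDP receptor tied to phagocytosis, 0.610 ± 0.141 CPM per kb. The low end depends on the length used. Per kb of the longest transcript (5740 in place of 18313 bases for Ptprc), Cd33 was lowest at 0.629, Ptprc stood at 0.718 and Irf8, at 1.09, left the lowest 5. Ctss, Lgmn and P2ry12 were the highest 3 by either length. Neighbours in the order overlapped over the 12 libraries except at 2 steps: Lgmn over P2ry12, and Itgam over Entpd1. This compares ranges over all libraries and not 2 genes within the same library. Whether the order of the other neighbours held library by library was not tested.

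**Figure D1:**
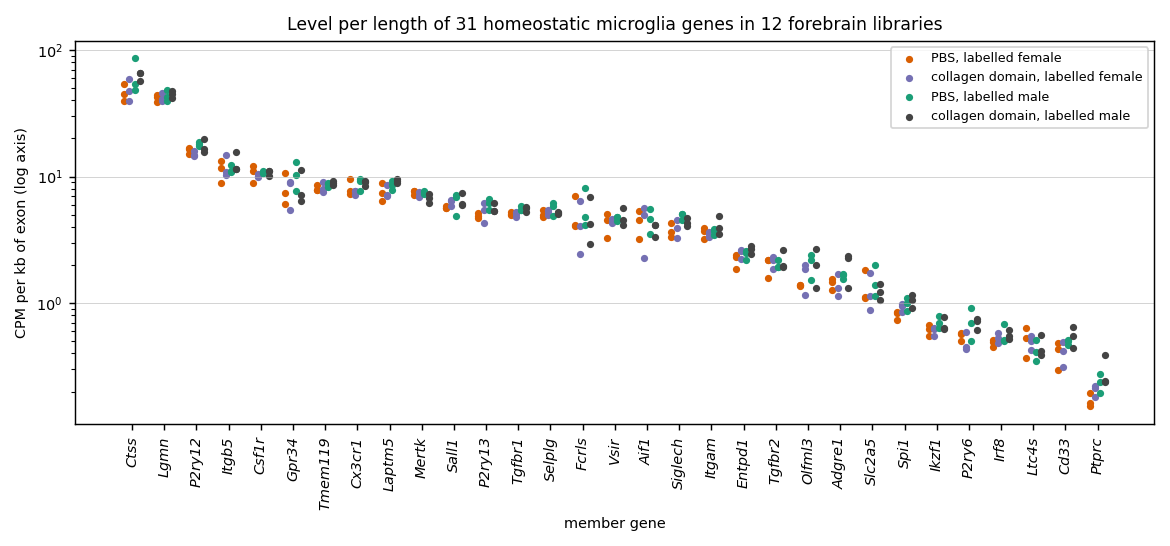
Level of each member in each of the 12 libraries, in CPM per kb of exon on a log axis, with genes ordered by their mean and colours giving the labelled group. Length is that of all annotated exons. Ctss and Lgmn stand above all others, and Ptprc lies lowest, which holds for this length only.

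How steady the genes were differed widely among them. The ratio of the highest to the lowest CPM over the 12 libraries had a median of 1.56 for the members and 1.53 for all 19145 genes tested. The steadiest were Tmem119, a surface protein used as a microglial label in brain, and Tgfbr1, the type I TGF-beta receptor, both at 1.21. Mertk, a receptor for engulfing dying cells, and Lgmn followed at 1.26, and Selplg, the P-selectin ligand, at 1.28. Tmem119 ranged only from 17.5 to 21.2 CPM. The widest range was that of Fcrls, an Fc receptor-like scavenger protein, with a ratio of 3.28. It stood at 5.74 CPM in collagen domain female 2 and at 18.8 CPM in PBS male 3. Ptprc had a ratio of 2.53, Aif1 (the actin-binding protein Iba1) 2.46, Gpr34 (a lysophosphatidylserine receptor) 2.42 and Olfml3 (a secreted matrix protein) 2.29.

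The extremes collected in a few libraries. PBS female 1 held the lowest value for 14 of the 31 genes, and collagen domain female 2 for a further 13. At the other end, collagen domain male 2 held the highest value for 9 genes and PBS male 3 for 7. PBS male 3 stood above the 12-library median for 27 of the 31, while PBS female 1 did so for 5. PBS female 1 was among the deeper libraries, at 49908839 reads, and had the largest mitochondrial share, 9.86%. PBS male 3, at the opposite extreme, had the second largest, 9.67%.

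**Figure D2:**
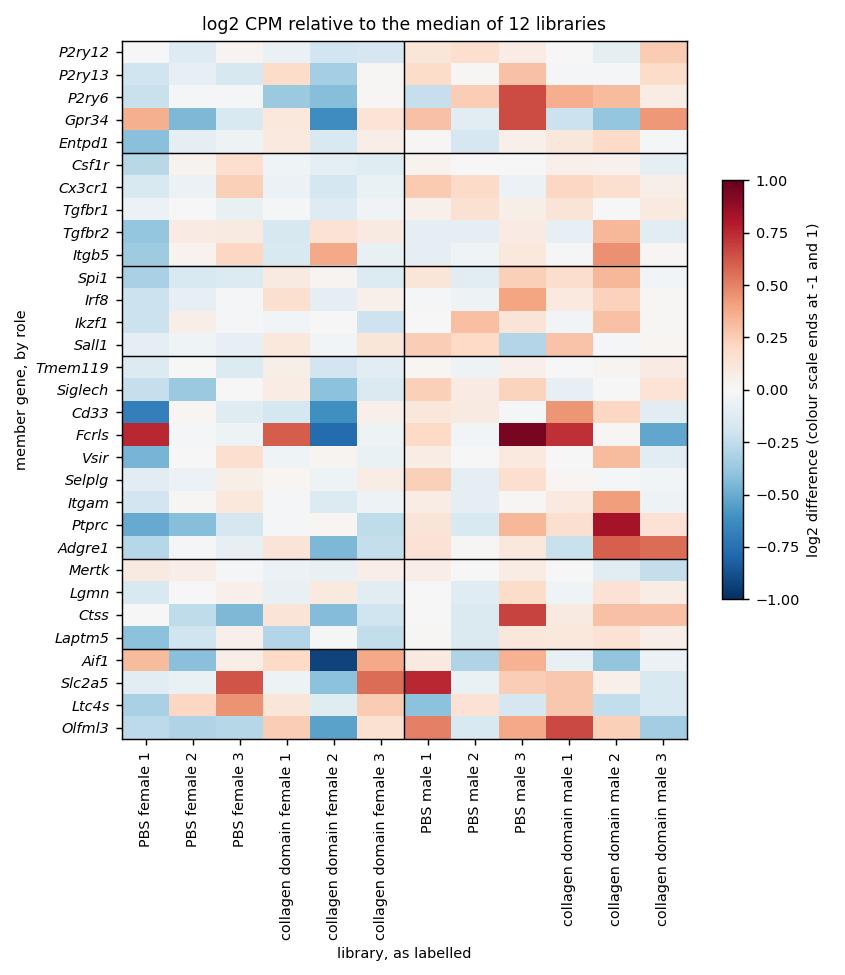
Difference of each member's log2 CPM from its median over the 12 libraries, with genes in rows by role and libraries in columns, red for higher and blue for lower. The columns of PBS female 1 and collagen domain female 2 are mostly blue, and those of PBS male 3 and collagen domain male 2 mostly red.

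The first question of the design was whether collagen domain expression altered these genes. No member passed the test. With edgeR's quasi-likelihood test over all genes (adjusted p threshold 0.05), 0 of 31 members passed for collagen domain against PBS in both sexes, where 0% of all tested genes did. None of the 31 had an unadjusted p under 0.05, against 1.85% of all genes. DESeq2 also called 0 members, with 1 at an unadjusted p under 0.05 (Mertk, log2 fold change -0.12). The median log2 fold change of the members was 0.02, beside 0.00 for all genes, and 17 of 31 lay above 0. In the 7 libraries low in hindbrain genes that median was 0.08, with 24 of 31 above 0. It was -0.11 in the 5 libraries high in hindbrain genes, with 10 of 31 above 0. No member passed in either class, and the difference between the classes was not tested. No member separated the 6 collagen domain from the 6 PBS libraries, which 0.0679% of all genes did.

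Of the 4 purine and lipid receptors and the ectonucleotidase Entpd1, Entpd1 had a positive log2 fold change and the receptors lay at 0.00 or below. P2ry12 ranged from 38.5 to 47.3 CPM with a median of 43.6 in PBS libraries, and from 36.9 to 50.1 with a median of 39.9 in collagen domain libraries. The collagen domain range enclosed the PBS range, and the log2 fold change was -0.09 (SE 0.0608). Entpd1 (CD39), which breaks down extracellular ATP, stood at 10.3 to 14.3 CPM (median 13.2) in PBS and at 12.4 to 15.8 CPM (median 14.6) in collagen domain libraries, a log2 fold change of 0.16 (SE 0.0801). The low end of PBS came from PBS female 1. P2ry13, a second ADP receptor, was at 0.00 (SE 0.0931), P2ry6 at -0.09 (SE 0.150) and Gpr34 at -0.19 (SE 0.201) on the log2 fold scale.

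The growth factor, chemokine and TGF-beta receptors lay close to 0. Csf1r ranged from 51.0 to 69.4 CPM (median 62.7) in PBS and from 57.1 to 64.2 CPM (median 59.2) in collagen domain libraries. Its log2 fold change was -0.04 (SE 0.0668), with the groups overlapping throughout. Cx3cr1, the fractalkine receptor, was at -0.05 (SE 0.0761) and Tgfbr1 at -0.01 (SE 0.0435). Tgfbr2, the type II TGF-beta receptor, was at 0.09 (SE 0.105) and Itgb5 at 0.13 (SE 0.121).

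The 4 transcription factors were at 0.14 (Spi1, SE 0.0999), 0.09 (Sall1, SE 0.0899), 0.07 (Irf8, SE 0.0988) and -0.04 (Ikzf1, the lymphoid and myeloid factor Ikaros, SE 0.0932). Among the 9 surface proteins, Ptprc had the largest difference of all members, 0.29 (SE 0.137). It stood at 2.80 to 5 CPM (median 3.56) in PBS and at 3.33 to 7.08 CPM (median 4.21) in collagen domain libraries, with the highest value in collagen domain male 2. Fcrls was the lowest member at -0.26, with an SE (0.278) larger than the difference. Tmem119 was at 0.02 (SE 0.0561). Siglech, a sialic-acid-binding lectin, was at -0.06 (SE 0.0938) and Selplg at -0.04 (SE 0.0662). Cd33 (0.07, SE 0.147), Itgam (the integrin CD11b, 0.06, SE 0.0881), Vsir (the inhibitory receptor VISTA, 0.04, SE 0.101) and Adgre1 (the adhesion receptor F4/80, 0.11, SE 0.148) lay slightly above 0.

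For uptake and the lysosome, Mertk had the smallest unadjusted p of all members. It ranged from 31.2 to 33.5 CPM (median 33.1) in PBS and from 26.7 to 33.0 CPM (median 30.1) in collagen domain libraries. The log2 fold change was -0.11 (SE 0.0535), with an adjusted p of 1 in edgeR, and the lowest library was collagen domain male 3. Lgmn was at 0.02 (SE 0.0642), Ctss at 0.04 (SE 0.141) and Laptm5, a lysosomal membrane protein, at 0.05 (SE 0.0818). The remaining members were Aif1 at -0.13 (SE 0.207), the fructose transporter Slc2a5 at -0.20 (SE 0.197), Ltc4s at 0.02 (SE 0.183) and Olfml3 at 0.12 (SE 0.182).

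The 95% intervals show what these libraries could have missed. For 27 of the 31 members the interval of the treatment effect left out a change by a factor of 1.5 in either direction (0.58 on the log2 scale). The 4 members whose intervals reached that size were Gpr34, Fcrls, Ptprc and Slc2a5. Over all members the intervals ran from -0.86 to 0.59. Without the 4 libraries against the treatment label fewer sizes could be left out: 22 of 31 intervals excluded that factor, and those of P2ry6, Itgb5, Adgre1, Aif1 and Ltc4s now reached it as well. There Aif1 went from -0.13 to -0.53 (SE 0.230) and Gpr34 from -0.19 to -0.48 (SE 0.250), and Gpr34, Fcrls, Ptprc and Slc2a5 still reached it.

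**Figure D3:**
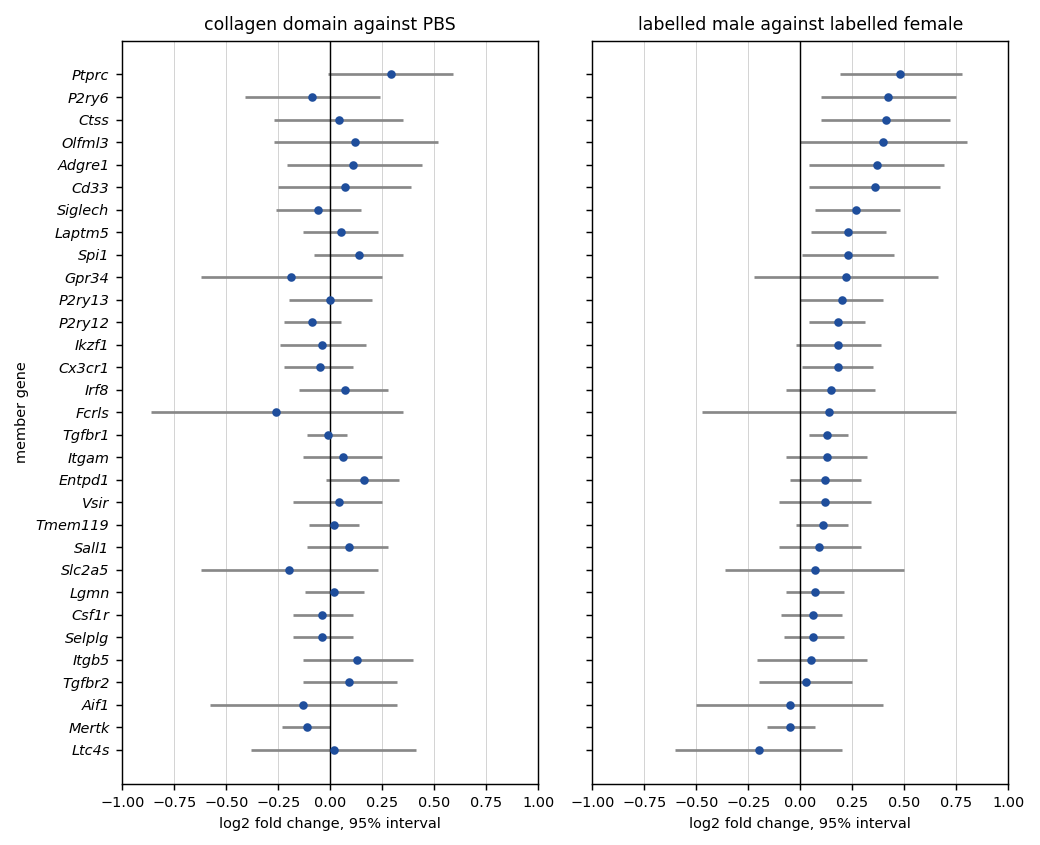
Log2 fold change (points) with 95% interval (lines) of each member for collagen domain against PBS on the left and for labelled male against labelled female on the right. On the left the points lie on both sides of 0, 17 of 31 above it, and on the right 28 of 31 lie above it.

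Within each sex no member passed either. In females 0 of 31 members passed and 0 had an unadjusted p under 0.05, against 0% and 1.46% of all genes, with a median of 0.01. Without the libraries against the treatment label the female groups were PBS females 1 and 3 and collagen domain female 2 alone, a single library assumed to vary like the other groups. The median was then -0.11 with 11 of 31 above 0, and 0 passed (0.00507% of all genes). Aif1, at -1.12 (SE 0.317), was the 1 member at an unadjusted p under 0.05 (2.01% of all genes), and Fcrls was at -1.18 (SE 0.616). In males the counts over all libraries were also 0 and 0 of 31, against 0% and 1.7%, and the median was 0.01. Without PBS male 1 they were 0 and 0 again (0.00507% and 1.34% of all genes), with a median of 0.01. For the interaction of treatment and sex they were 0 and 0 of 31, against 0% and 1.37%. The largest interaction over all libraries was that of Adgre1, at 0.32 (SE 0.295), followed in size by Olfml3 at -0.30 (SE 0.370). Without the libraries against the sex label the counts were 0 and 0 (0% and 0.903% of all genes). The members' interactions then ran from -0.30 to 0.64. With collagen domain female 2 alone in its group they ran from -0.28 to 0.90 without libraries against the treatment label. Without those against either label they ran from -0.22 to 1.03.

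Leaving out libraries that went against their labels did not bring a member past the threshold. Without the 4 against the treatment label, 0 of 31 passed and 0 had an unadjusted p under 0.05 (0.0101% and 3.35% of all genes), and the median was -0.03. Without the 5 against either label 0 passed and 4 had an unadjusted p under 0.05 (0.0102% and 5.79% of all genes). All 4 were lower with collagen domain: Gpr34 at -0.69, Aif1 at -0.62, Siglech at -0.25 and P2ry12 at -0.20. In that fit the PBS libraries were PBS females 1 and 3 and males 2 and 3, the collagen domain libraries were female 2 and males 1 and 2, and the median over all 14 genes of cerebellum and hindbrain was 0.72 higher on the log2 scale with collagen domain. Its part in these 4 differences was not tested.

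By labelled sex, most members lay on 1 side. In males against females 28 of 31 lay above 0, with a median log2 fold change of 0.14 beside 0.00 for all genes. None passed at an adjusted p under 0.05 with edgeR (0 of 31, and 0% of all genes). At an unadjusted p under 0.05 there were 12 of 31, all higher in labelled males, which is 38.7% of the members against 1.97% of all genes. DESeq2 gave 0 members past the threshold and 13 at an unadjusted p under 0.05 (1.92% of all genes). These genes are read from the same libraries, so the 12 are not independent of each other. Summed over the 31 genes, the level was 638 to 700 CPM (median 668) in libraries labelled female and 690 to 800 CPM (median 737) in those labelled male. The groups overlapped only where PBS male 2, at 690 CPM, lay below PBS female 3, at 700, and collagen domain female 1, at 697 CPM.

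Ptprc had the largest difference. Females ranged from 2.80 to 4.04 CPM (median 3.44) and males from 3.58 to 7.08 CPM (median 4.42). The log2 fold change was 0.48 (SE 0.137, adjusted p = 1 in edgeR), and the groups overlapped in a narrow band. Among the purine receptors, P2ry6 stood at 1.25 to 1.70 CPM (median 1.55) in females and at 1.44 to 2.64 CPM (median 2.05) in males, a log2 fold change of 0.42 (SE 0.150). Only PBS male 1, a library against its sex label, lay inside the female range. P2ry12 stood at 36.9 to 42.8 CPM (median 39.4) in females and at 39.5 to 50.1 CPM (median 45.1) in males, a log2 fold change of 0.18 (SE 0.0608). Its 2 lowest male values, both collagen domain, lay inside the female range.

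Tgfbr1 was the member whose groups did not overlap, as in 0.104% of all genes. It ranged from 31.3 to 34.0 CPM (median 33.1) in females and from 34.3 to 37.9 CPM (median 36.1) in males. The difference was small, 0.13 (SE 0.0435, adjusted p = 1 in edgeR), and the SD within each sex was 1.03 CPM in females and 1.31 CPM in males. Tgfbr2, with which Tgfbr1 forms the TGF-beta receptor, was at 0.03 (SE 0.105) and Cx3cr1 at 0.18 (SE 0.0762). Csf1r was at 0.06 (SE 0.0668) and Itgb5 at 0.05 (SE 0.121).

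All 4 transcription factors lay above 0. Spi1 stood at 2.00 to 2.67 CPM (median 2.28) in females and 2.33 to 3.15 CPM (median 2.77) in males, a log2 fold change of 0.23 (SE 0.0999). Ikzf1 was at 0.18 (SE 0.0933), Irf8 at 0.15 (SE 0.0988) and Sall1 at 0.09 (SE 0.0899). So were all 9 surface proteins. Siglech stood at 11 to 15.3 CPM (median 12.8) in females and 13.8 to 17.2 CPM (median 15.7) in males, a log2 fold change of 0.27 (SE 0.0938). The highest library of each sex for Siglech, collagen domain female 1 and PBS male 1, was one that went against its sex label. Adgre1 was at 0.37 (SE 0.148) and Cd33 at 0.36 (SE 0.147), while Tmem119 was at 0.11 (SE 0.0561).

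Of the lysosomal members, Ctss ranged from 53.4 to 79.8 CPM (median 62.5) in females and from 66.1 to 117 CPM (median 83.6) in males. Its log2 fold change was 0.41 (SE 0.141), and the highest value was that of PBS male 3. Laptm5 stood at 24.3 to 33.6 CPM (median 27.8) in females and at 29.4 to 35.9 CPM (median 34.4) in males, 0.23 on the log2 scale (SE 0.0819). Lgmn was at 0.07 (SE 0.0642). Olfml3 was at 0.40 (SE 0.182). The 3 members below 0 were Mertk at -0.05 (SE 0.0535), Aif1 at -0.05 (SE 0.206) and Ltc4s at -0.20 (SE 0.183). The intervals of all 3 included 0.

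**Figure D4:**
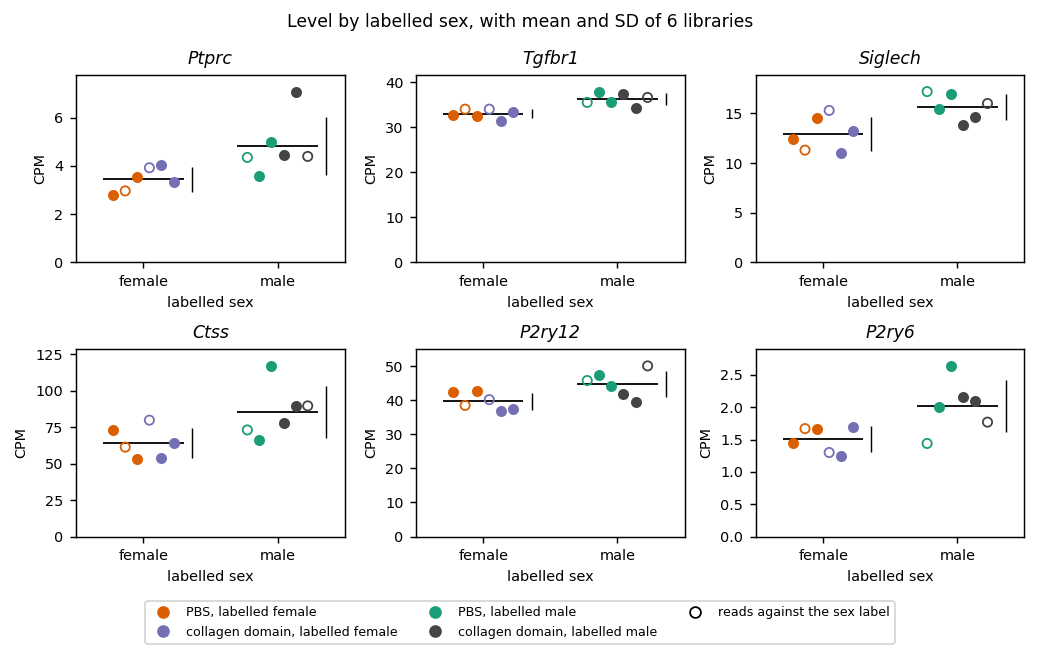
CPM of the 6 members with the smallest p for labelled sex, 1 point per library, with the mean (horizontal line) and SD (vertical line) of the 6 libraries of each labelled sex; open points are the 4 libraries whose Xist and Ddx3y reads go against the label. Tgfbr1 does not overlap between the sexes (31.3 to 34.0 against 34.3 to 37.9 CPM), and the other 5 overlap, Ctss with 3 of 6 males inside the female range.

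The direction by labelled sex held without the doubtful libraries, but fewer members reached an unadjusted p under 0.05. Over the 31 genes PBS male 1 and collagen domain male 3, both high in Xist, summed to 741 and 729 CPM. These values lay above every library labelled female (at most 700 CPM). PBS female 2 and collagen domain female 1, both high in Ddx3y, summed to 666 and 697 CPM. A difference by sex as read from Xist and Ddx3y over all libraries was not tested. Without the 4 libraries against the sex label, 27 of 31 lay above 0 with a median of 0.17. In that fit 0 passed (0.0313% of all genes) and 7 had an unadjusted p under 0.05 (2.06%): P2ry6, Tgfbr1, Siglech, Cd33, Ptprc, Ctss and Olfml3. Among those 8 libraries P2ry6, Tgfbr1 and Tmem119 did not overlap between the sexes, as in 1.58% of all genes. Without the 5 libraries against either label the counts were 0 (0.0407%) and 7 (2.12%), with 29 of 31 above 0. Leaving out PBS male 3, PBS female 1 or any other single library left 8 to 14 members at an unadjusted p under 0.05 (1.6% to 2.55% of all genes) and 27 to 29 above 0.

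For labelled sex, most members lay above 0 within each tissue class, but not always the same ones. In the 7 libraries low in hindbrain genes 0 members passed (0.0204% of all genes), 8 had an unadjusted p under 0.05 (6.19%), 7 of them higher in males, and 27 lay above 0. In the 5 libraries high in hindbrain genes the counts were 0 (0.00512%) and 11 (19.2%), all 11 higher in males, with 29 above 0. The only males there were PBS male 3 and collagen domain male 2, which held the highest value for 7 and 9 members. The females included collagen domain female 2, lowest for 13 members, and PBS female 2, which went against its sex label. Aif1 was the member lower in males in the low libraries, at -0.38, and it stood at 0.53 in the high libraries. Fcrls (-0.33 and 0.91), Gpr34 (-0.08 and 0.67), Sall1 (0.15 and -0.11) and Mertk (-0.09 and 0.02) also differed in sign between the classes, and these differences were not tested. PBS male 1, counted as low, lay between the classes: its mean centred log2 level of hindbrain genes was -0.29, against -2.59 to -2.08 in the other 6 low libraries, and Slc6a5, a glycine transporter of hindbrain and spinal cord neurons, stood there at 13.7 CPM against at most 0.44. With it left out of the low class, an alternative chosen after seeing the data, 0 members passed (0.0154% of all genes), 7 had an unadjusted p under 0.05 (3.83%), 6 of them higher in males and Aif1 lower, and 25 lay above 0. The only member whose levels separated the hindbrain-high from the hindbrain-low libraries was Itgb5, at 41.8 to 55.9 against 31.8 to 41.1 CPM, where 7.85% of all genes did so. Gpr34 and Aif1 had their lowest values among the hindbrain-high libraries and overlapped between the classes. In the 5 hindbrain-high libraries Aif1 ranged from 3.50 to 8.42 CPM and Gpr34 from 11.3 to 27.2 CPM, both highest in PBS male 3, while the low libraries held 5.37 to 8.62 and 15.0 to 23.4 CPM.

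**Figure D5:**
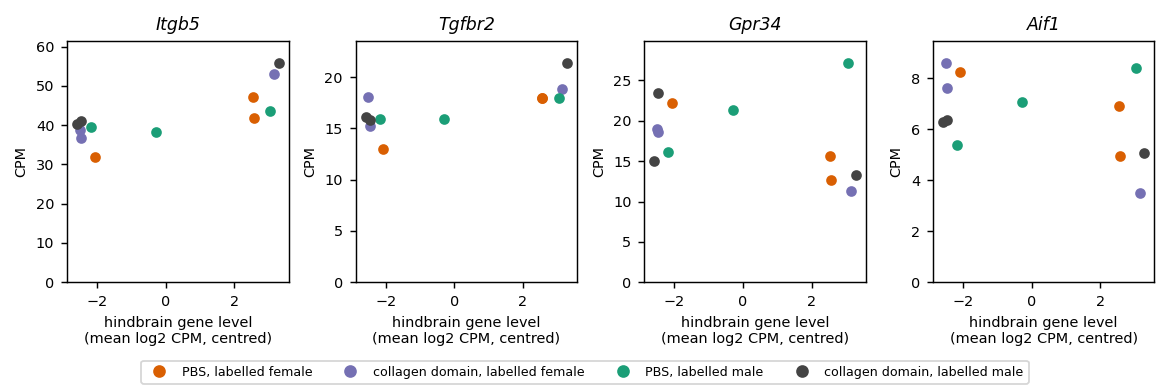
CPM of 4 members against the mean centred log2 CPM of 14 cerebellum and hindbrain genes, 1 point per library coloured by labelled group. Itgb5 is higher in all 5 libraries on the right (41.8 to 55.9 CPM) than in the 7 on the left, and PBS male 3 stands above the other right-hand libraries for Gpr34 (27.2 CPM) and Aif1 (8.42 CPM).

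Genes outside the member list give the setting of these values. A further 28 genes expressed by microglia had a median of 0.19 in males against females, with 26 of 28 above 0 and 7 at an unadjusted p under 0.05, among them Trem2 (0.43, SE 0.183), a lipid-sensing receptor, and C1qa (0.28, SE 0.114), a chain of complement C1q. Over all genes 1.97% reached that p. Without the libraries against the sex label 3 of the 28 did (2.06% of all genes), and without those against either label 1 did (2.12%), with 25 above 0 each time. PBS male 3 held the highest value of 17 of the 28. For treatment their median was -0.04, with 0 of 28 at that p. The ligands and signalling partners of the members, such as Il34, Csf1, Cx3cl1 and Tgfb1, showed neither: 0 of 17 tested reached an unadjusted p under 0.05 for either comparison, with medians of 0.00 for sex and 0.02 for treatment. Il34 ranged from 31.6 to 44.3 CPM and Cx3cl1, the ligand of Cx3cr1, from 293 to 485 CPM, each with no separation of the groups.

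Activation genes stood apart in 1 library. Of 19 such genes, PBS male 3 held the highest value for 14 and lay above the 12-library median for all 19. Cst7, the inhibitor cystatin F, stood there at 7.82 CPM and at most at 0.326 CPM in the other 11 libraries. Of the homeostatic genes, 27 of 31 were above their median in that library, with Ctss at 117 CPM and P2ry6 at 2.64 CPM. The other 4 were below it. Sall1 had its lowest value of all libraries there, 25.8 CPM against a median of 31.7, and Cx3cr1 (34.8 CPM, median 36.3), Cd33 (3.64, median 3.69) and Ltc4s (0.419, median 0.471) were closer to theirs. Without PBS male 3, 10 members had an unadjusted p under 0.05 for labelled sex (2.13% of all genes), with a median of 0.14. Over all libraries 3 of 17 activation genes tested were higher in males at that p (1.97% of all genes). Their median was 0.15, with 13 above 0. Without the libraries against the sex label 1 of 17 was (2.06%), and without those against either label 3 of 19 were (2.12%). For treatment the median was -0.10, with 4 of 17 above 0 and 1, Cst7, lower at that p (1.85%).

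Some markers of other cells were also highest in the library highest for Ptprc. In collagen domain male 2 the neutrophil genes S100a8 and S100a9 stood at 7.57 and 10.8 CPM, against at most 2.25 and 2.12 CPM elsewhere, and the monocyte receptor Ccr2 at 2.03 CPM against at most 0.732. The same library held the highest Ptprc (7.08 CPM), Itgam (24.7 CPM) and Adgre1 (7.60 CPM), which blood and border myeloid cells also express. The 15 border macrophage and blood myeloid genes summed to 16.3 to 22.6 CPM in females and 17.1 to 35.6 CPM in males, and none was at 0 in any group. Collagen domain male 2, with the highest sum, lay above the median of all libraries for 7 of the 15 and was highest for 4. Pf4 was at its lowest there, 0.21 CPM, and the monocyte gene Ly6c2 stood at 1.75 CPM within a range of 1.25 to 5.39. For labelled sex 4 of those 15 were higher in males at an unadjusted p under 0.05 and 1, Lyve1, was lower. Over all genes 1.97% reached that p. Without the libraries against the sex label 3 were higher and 1 lower (2.06%). Without those against either label 3 were higher and 0 lower (2.12%). For treatment 1 was higher at that p (Ccr2, 0.99) and 2 were lower (Pf4, -0.76, and Ly6c2, -0.88), beside 1.85% of all genes. The part of cells expressing these genes in the differences of Ptprc, Itgam and Adgre1 was not tested. The 10 lymphocyte genes summed to 6.59 to 10.9 CPM, with 5 of them at 0 in at least 1 library.

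Other cell types are given for comparison. Median log2 fold changes of males against females were 0.00 for 10 astrocyte genes, -0.05 for 10 neuron genes, 0.02 for 10 endothelial genes, 0.04 for 10 oligodendrocyte genes and -0.31 for 10 fibroblast genes. Of the fibroblast genes 3 had an unadjusted p under 0.05 and were lower in males (Ogn, Islr and Col1a2), beside 1.97% of all genes. Without the libraries against the sex label 4 were lower at that p (2.06%), and without those against either label 5 (2.12%). The sum of the fibroblast genes was 130 to 207 CPM in females and 125 to 162 CPM in males. The part of these cells in the members' differences was not tested.

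Promoter sequence was read from RefSeq (mouse build GRCm38.p6) as the 250 bases before each start site, since PU.1 is a named regulator of this programme. Windows were found for 24 of the 31 genes, 32 windows in all (not for P2ry6, Gpr34, Csf1r, Spi1, Tmem119, Selplg and Adgre1). The long PU.1 motif GAGGAAGT was in 0 of 32, against 2.44% of 32841 windows of all genes. Its core GAGGAA, searched on both strands and contained in the long form, was in 11 of 32 (34.4%, against 23.3%). The joint PU.1 and IRF motif GGAANNGAA was in 0 (6.99%), the lysosomal E-box TCACGTGA in 1 (3.12%, against 0.786%) and the TATA box TATAAA in 6 (18.8%, against 12.4%). GC content had a median of 55.2% in the members' windows and 52.4% in all. All motifs were searched on both strands and anywhere in the window. A match is a string of letters in the window and not a measured binding site.

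The windows of 4 members are shown to give examples of the motifs: Ptprc, Tgfbr1 and Ctss are those with the core motif GAGGAA and the smallest unadjusted p for labelled sex, and Siglech is the one with the E-box. None of the 4 passed the adjusted threshold for sex. They were chosen after the values were seen. Capitals mark the motif, each sequence reads 5′ to 3′ on the gene's strand, and its last base lies next to the start site. The windows are at chr1:138175306-138175555 (minus strand, Ptprc), chr4:47385966-47386215 (plus strand, Tgfbr1), chr3:95526536-95526785 (plus strand, Ctss), chr7:55767934-55768183 (plus strand, Siglech).
Ptprc: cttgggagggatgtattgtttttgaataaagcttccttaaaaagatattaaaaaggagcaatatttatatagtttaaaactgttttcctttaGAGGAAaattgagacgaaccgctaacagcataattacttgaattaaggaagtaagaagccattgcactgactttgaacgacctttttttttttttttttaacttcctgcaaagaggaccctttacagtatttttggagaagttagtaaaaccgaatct
Tgfbr1: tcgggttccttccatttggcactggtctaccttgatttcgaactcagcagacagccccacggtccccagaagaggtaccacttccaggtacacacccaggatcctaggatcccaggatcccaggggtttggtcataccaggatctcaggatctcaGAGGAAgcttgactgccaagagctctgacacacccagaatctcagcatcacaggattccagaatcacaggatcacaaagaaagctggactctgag
Ctss: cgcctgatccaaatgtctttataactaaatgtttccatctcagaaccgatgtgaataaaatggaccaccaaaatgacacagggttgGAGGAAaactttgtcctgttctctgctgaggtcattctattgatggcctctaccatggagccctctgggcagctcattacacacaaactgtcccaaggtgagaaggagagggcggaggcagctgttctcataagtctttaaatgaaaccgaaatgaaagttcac
Siglech: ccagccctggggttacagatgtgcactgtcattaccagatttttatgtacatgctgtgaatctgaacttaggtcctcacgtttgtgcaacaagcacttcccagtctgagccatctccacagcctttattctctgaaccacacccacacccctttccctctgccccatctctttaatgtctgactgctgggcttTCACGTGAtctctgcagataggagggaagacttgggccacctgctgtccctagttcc
In Ptprc the motif begins 158 bases before the start site in a window of 31.6% GC, the lowest of all member windows, and in Ctss 164 bases before it. In Tgfbr1 it begins 95 bases before the start, and in Siglech the E-box begins 57 bases before it. Tgfbr1 and Ptprc each have another window, for another start site, of 74.8% and 36.8% GC. Those windows hold no GAGGAA, so the motif lies before only some of the start sites of these genes. The printed windows of Ptprc and Ctss also hold the TATA box letters, but only on the opposite strand, so they read TTTATA as printed. Those of Tgfbr1 and Siglech hold them on neither strand.

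Reads of overlapping genes limit a few values, since the kit does not keep strand and the counting is not described in the sources used here. Exons of 5 members overlap another gene in the GENCODE M21 annotation. The longest overlap is that of Csf1r with Hmgxb3 on the opposite strand, 873 bases. Those of Itgam with Gm49368 (210 bases, same strand), Ltc4s with Gm26542 (186 bases), Cx3cr1 with Gm33858 (78 bases) and P2ry12 with Med12l (9 bases) are shorter. How reads there were assigned cannot be read from the counts.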

How the data were processed

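Poly(A) RNA from pulverised forebrain was prepared with a TruSeq version 2 kit and read as 75-base pairs (source: the labels' protocols). The authors deposited 1 table of raw read counts, whole numbers listed by Ensembl gene ID. STAR, DESeq2 and GRCm39 are named per the submitters' processing notes; the counting tool, strand setting and annotation are not given in the sources used here. Symbols and exon lengths came from GENCODE M21 (GRCm38), so no gene coordinates are given.

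Tests on the counts used edgeR 4.0.16 in R 4.3.3 (TMM, filterByExpr on the 4 groups leaving 19145 genes, quasi-likelihood F-test, two-sided, Benjamini-Hochberg over all genes, threshold 0.05). An additive fit of sex and treatment gave the effects over all 12 libraries, and a fit of the 4 groups gave those within a sex and the interaction. CPM uses TMM-scaled library sizes, SDs are between libraries, and the SE is the log2 fold change over the root of F. Intervals take the t quantile of each gene's degrees of freedom. Chi-square values per degree of freedom were at least 7.49 for every pair of libraries, so no library repeated another.

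The 31 members and the 11 further gene lists (155 genes, of which 154 were found) were chosen with earlier results of these data known. All members are named. From the other lists the genes of smallest p are named, and those described for 1 library (Cst7, S100a8, S100a9, Ccr2) and the 4 printed promoter windows were chosen after their values were seen. The printing rule asked for members holding GAGGAAGT, and there were none.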

Additional observations from a re-analysis of the deposited data

Results flagged for a closer look

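Each member was examined for a library far from the others of its labelled treatment, in 62 groups of 6 libraries. A gap to the nearest library above 0.625 of the group's whole range was found 4 times, and chance gives about 1 in 20 groups. Irf8 stood at 4.79 CPM in PBS male 3, the highest PBS library, with the others at 3.15 to 3.62 CPM. Cd33 stood at 2.30 CPM in PBS female 1, the lowest PBS library, with the others at 3.40 to 4 CPM. Vsir stood at 16.4 CPM in the same library, with the other PBS libraries at 22.5 to 25.3 CPM, and at 28.1 CPM in collagen domain male 2, with the other collagen domain libraries at 20.9 to 23.1 CPM. All 3 libraries are among those that hold many of the members' extremes. No member had an interaction of treatment and sex past the threshold.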

How the results depend on the processing

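The count of members past an adjusted p of 0.05 was 0 in all 5 comparisons under every alternative that was run: DESeq2, limma-voom, RLE size factors, no filter, 1 CPM in 6 libraries, a threshold of 0.1, the replicate block, each library left out, libraries against a label left out, and, for the main comparisons, a hindbrain covariate, subsets by hindbrain genes and no second term. No member's call ended or turned, since none was made.

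Counts at an unadjusted p under 0.05 varied. For labelled sex (12, 1.97% of all genes) the count was 7 without libraries against the treatment label (2.54%), sex label (2.06%) or either (2.12%). For treatment in both sexes (0, 1.85% of all genes) it was 1 under 1 CPM in 6 libraries (1.44%) and under DESeq2 (1.77%). It was also 1 with no second term (1.96%) and without libraries against the sex label (3.44%). Libraries low in hindbrain genes gave 2 (2.81%), all higher with collagen domain. Without libraries against either label it was 4 (5.79%), all lower. With the hindbrain covariate it was 5 (5.16%), 4 of them higher. Libraries high in hindbrain genes gave 6 (9.6%), 2 of them higher. For treatment in females (0) it was 2 with the covariate (3.34% of all genes). For treatment in males (0) it was 2 with the covariate (3.12% of all genes). Fits that left collagen domain female 2 alone in its group are not counted here. The cause was not tested. With single libraries left out the counts were 8 to 14 for sex, 0 to 2 for treatment in both sexes, 0 to 1 in females, 0 to 2 in males and 0 to 1 for the interaction. In those fits 1.03% to 3.2% of all genes reached that p. The count for sex was 8 with any 1 of 4 libraries left out (females PBS 1 and collagen domain 2, males PBS 1 and collagen domain 2). An alternative added after seeing the data was the libraries low in hindbrain genes without PBS male 1. Its counts were 7 for sex (3.83% of all genes) and 3 for treatment in both sexes (2.97%).

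Of the 31 members, 21 lay higher in labelled males under all 26 alternatives. Whether the numbers in the labels pair the libraries was not settled. Deviations of same-numbered libraries correlated over 0.1 in 7 of 18 pairs (-0.384 to 0.572), but differently numbered pairs were not computed for comparison. With the replicate block, 12 members had an unadjusted p under 0.05 for sex (1.94% of all genes, median 0.15) and 0 for treatment (1.85%, median 0.02). Depth limits Ltc4s, at 16 to 34 reads a library.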
